A study of Homo sapiens with 9 samples.

Results

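The BCL2 family decides whether a cell permeabilises its outer mitochondrial membrane and dies, and 10 of its genes were followed here through the loss of the arginine methyltransferase PRMT5 or of its partner MEP50. The survival members were MCL1, BCL2L1, BCL2L2, BCL2 and BCL2A1. The death members were the pore-forming effector BAK1 and the BH3-only genes BID, BCL2L11, BMF and BIK. They are 10 of the 51796 genes in the deposited count table, and 9 of them were among the 14582 genes with enough reads for the statistical fit. They were chosen as a family, and selected on measured values in so far as BCL2A1 was known to appear in the PRMT5 knockdown and BMF to be low there. The members' differences between the PRMT5 knockdown and the control are therefore given as descriptions without a test. No call of a test is given for BCL2A1 or BMF in any comparison. The exception to both is the listing of members in the authors' deposited tables, which is not used as support.

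Gene expression was measured by sequencing of total RNA depleted of ribosomal RNA in A549, an established line of human lung adenocarcinoma. There were 3 groups of 3 libraries, labelled as biological replicates. They were a PRMT5 knockdown, a MEP50 knockdown and a control with a hairpin against GFP, a protein that these cells do not make. Every group, the control included, grew in RPMI with serum and carried a stable short hairpin RNA kept under puromycin. The labels name 1 target per group and give neither the number of hairpins or of independent lines nor the time after transduction, so effects of the target and of the hairpin or line cannot be told apart. Both knockdowns are set against the same GFP control libraries. PRMT5 is the main source of symmetric arginine dimethylation, on histone tails and on splicing proteins among others, and MEP50, the product of WDR77, is the partner that presents substrates to it.

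Survival members hold BAK and BAX inactive by binding them in a groove, and BH3-only proteins occupy that groove or act on the effectors directly. MCL1 and BCL-xL, the long product of BCL2L1, are the survival proteins on which many carcinoma lines depend. BCL2A1 is known as an NF-kB target of leukocytes and melanoma cells, and BMF is known for signalling detachment from the matrix and stress of the actin skeleton. BIM, the product of BCL2L11, binds all survival members and is a known target of FOXO factors.

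Each library held 20806181 to 31586128 reads on genes, and the deposited counts of 3 replicates gave a biological coefficient of variation of 0.0395. Levels are CPM (counts scaled to library size) after TMM scaling, with SD over the 3 libraries of a group. PRMT5 stood at 68.9 ± 1.33, 204 ± 6.35 and 209 ± 3.17 CPM in the PRMT5 knockdown, the MEP50 knockdown and the GFP control. WDR77 stood at 44.1 ± 2.52, 12.5 ± 1.58 and 39.4 ± 0.225 CPM in the same order, so each target was low in the libraries labelled with it. Of the 6 epithelial markers, KRT8, KRT18 and CDH1 were well read, KRT7 was low, EPCAM had 13 to 19 reads per group and KRT19 at most 2. The epithelial markers summed to 4154 to 4313 CPM in the PRMT5 knockdown, 3870 to 4147 CPM in the MEP50 knockdown and 6345 to 6575 CPM in the GFP control, nearly all of it KRT8 and KRT18. Of the 4 epithelial markers in the fit, 0 were higher and 3 lower in the PRMT5 knockdown, and 2 were higher (KRT7 and CDH1, log2 0.74 and 0.92) and 2 lower in the MEP50 knockdown. Over all tested genes, 26.1% were higher and 24.9% lower in the PRMT5 knockdown, and 26.5% and 25.2% in the MEP50 knockdown. The 6 fibroblast markers summed to 221 to 233 CPM in the PRMT5 knockdown, 273 to 291 CPM in the MEP50 knockdown and 108 to 110.3 CPM in the GFP control, most of it COL3A1, while DCN and COL1A2 had 0 to 5 reads per group. LUM, another fibroblast marker, did not follow the sum in the PRMT5 knockdown and stood at 0.629 ± 0.240 CPM there, 7.90 ± 0.167 CPM in the MEP50 knockdown and 5.17 ± 0.646 CPM in the GFP control. Both sums moved with the knockdowns, and their part in the results on the family was not tested. In bulk RNA, fewer cells with a transcript and less of it per cell cannot be told apart.

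BCL2A1 and BMF, the members that stood furthest from the control in the PRMT5 knockdown, lie on chromosome 15. BCL2L11 was the member whose libraries all lay above the control libraries in the MEP50 knockdown and all below them in the PRMT5 knockdown. Promoter windows of these 3 genes, 250 bases before to 50 bases after an annotated start of a transcript, are shown because the results turn on these genes. Counts per gene do not tell which start the cells used. The windows come from RefSeq on GRCh38.p14, where 7 of the 10 members had at least 1 window and 13 windows in all. Capitals mark the matches to the motifs searched on both strands, which were the TATA box (TATAAA), the GC box (GGGCGG), the FOXO motif TGTTTAC and the NF-kB consensus. The BCL2A1 window is chr15:79971147-79971446, the first BMF window chr15:40108830-40109129 (both on the minus strand) and the BCL2L11 window chr2:111120664-111120963 (plus strand).
BCL2A1: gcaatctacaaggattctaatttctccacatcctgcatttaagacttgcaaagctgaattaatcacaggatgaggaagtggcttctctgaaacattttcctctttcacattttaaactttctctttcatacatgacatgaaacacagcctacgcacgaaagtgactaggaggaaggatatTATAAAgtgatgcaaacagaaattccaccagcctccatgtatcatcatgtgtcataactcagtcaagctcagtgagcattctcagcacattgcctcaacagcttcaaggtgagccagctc
BMF: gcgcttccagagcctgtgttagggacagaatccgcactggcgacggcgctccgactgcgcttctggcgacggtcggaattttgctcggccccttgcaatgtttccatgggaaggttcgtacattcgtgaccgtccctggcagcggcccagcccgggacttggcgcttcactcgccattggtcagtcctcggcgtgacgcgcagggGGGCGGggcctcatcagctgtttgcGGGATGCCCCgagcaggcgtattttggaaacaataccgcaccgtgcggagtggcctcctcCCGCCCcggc
BCL2L11: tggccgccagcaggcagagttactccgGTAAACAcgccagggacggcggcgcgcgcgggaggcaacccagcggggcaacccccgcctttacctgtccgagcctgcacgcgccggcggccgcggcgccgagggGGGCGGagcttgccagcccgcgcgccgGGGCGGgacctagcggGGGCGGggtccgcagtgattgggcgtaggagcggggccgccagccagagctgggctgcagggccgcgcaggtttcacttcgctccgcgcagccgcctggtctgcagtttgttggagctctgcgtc
The BCL2A1 window held 41% G and C, against a median of 58.7% over all 35116 windows, and its only match was a TATA box beginning at position -70 from the start, a motif that 11.5% of all windows hold. The first BMF window held 65% G and C, GC boxes beginning at positions -45 and 41 from the start, and an NF-kB match on the opposite strand at position -20. GC boxes occur in 45.0% of all windows and the NF-kB consensus in 5.91%. The second BMF window held none of the 4 motifs. The BCL2L11 window held 74.7% G and C, 3 GC boxes and a FOXO motif on the opposite strand at position -223, a motif of 3.42% of all windows. A match describes the letters of the window and shows neither binding nor a cause, and no NF-kB match in the BCL2A1 window says only that these letters are absent from it.

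BCL2A1 was close to absent in the control and read in every library of both knockdowns. It had 92, 101 and 125 reads in the PRMT5 knockdown libraries, 19, 9 and 21 reads in the MEP50 knockdown libraries and 2, 0 and 3 reads in the GFP control libraries. Every PRMT5 library lay above every MEP50 library, and every MEP50 library above every control library. In level this was 3.61 ± 0.344 CPM in the PRMT5 knockdown, 0.693 ± 0.252 CPM in the MEP50 knockdown and 0.0628 ± 0.0563 CPM in the GFP control. Scaled for depth, the reads of the MEP50 knockdown stood at 11.4 times those of the control, with a 95% counting interval of 4.59 to 36.8. Those of the PRMT5 knockdown stood at 5.19 times those of the MEP50 knockdown and at 59.5 times those of the control, given as descriptions without an interval. In the fit the log2 fold change was 5.79 ± 0.436 for the PRMT5 knockdown and 3.42 ± 0.578 for the MEP50 knockdown. Without the second control library, the one with 0 reads, the values were 5.18 and 2.81, and without the third they were 6.44 and 4.08. The counting interval covers counting error alone, and the 5 control reads set its width. It pools the reads of the 3 libraries of a group, and its control libraries are those of the comparison that chose BCL2A1. It is therefore neither a test of BCL2A1 nor support for its difference. BCL2A1 passed the filter on low counts, a level of 0.361 CPM in at least 3 libraries, only through the knockdown libraries, so its place among the tested genes is itself a product of the difference.

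BCL2A1 is known as a leukocyte gene, and 8 of the 9 leukocyte markers had too few reads for the fit. PTPRC, the pan-leukocyte surface phosphatase CD45, had 1 read in the PRMT5 knockdown, 1 in the MEP50 knockdown and 1 in the GFP control. CD3E and MS4A1 had 0 reads in all 9 libraries. The 9 leukocyte markers together summed to 1.97 to 2.11 CPM in the PRMT5 knockdown, 1.59 to 2.08 CPM in the MEP50 knockdown and 0.942 to 2.12 CPM in the GFP control. Most of that was ITGAM, an integrin chain of myeloid cells, at 1.67 CPM in the PRMT5 knockdown, 1.57 CPM in the MEP50 knockdown and 0.986 CPM in the GFP control. ITGAM was called higher in the PRMT5 knockdown by log2 0.77 (edgeR, adjusted p = 0.0237), a call lost under 3 of 17 alternative settings. It was also called higher in the MEP50 knockdown by 0.69 (edgeR, adjusted p = 0.0490), a call lost under 13 of them. Of the 4 endothelial markers, 3 were matched and summed to at most 0.270 CPM in any library. Over the 9 libraries, the genes whose log2 profile was closest to that of BCL2A1 among 12197 named genes were KCNH1, a potassium channel, CDH4, a cadherin, and DCDC1. Their root mean square log2 differences from it were 0.829, 0.831 and 1.10. KCNH1 stood at 5.48 ± 0.699 CPM in the PRMT5 knockdown, 3.70 ± 0.606 CPM in the MEP50 knockdown and 0.281 ± 0.0800 CPM in the GFP control, so its MEP50 level lay nearer to the PRMT5 level than that of BCL2A1 did.

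MCL1, the short-lived survival protein that binds BAK, BIM and BID, was the most abundant member in every group and was higher in both knockdowns. Its level was 392, 381 and 359 CPM across the PRMT5 knockdown libraries, 356, 356 and 364 CPM in the MEP50 knockdown libraries and 289, 298 and 278 CPM in the GFP control libraries. All 6 knockdown libraries lay above all control libraries, while the libraries of the knockdowns overlapped each other. MCL1 was 1.24-fold the control in the MEP50 knockdown, a log2 fold change of 0.31 ± 0.0313 (edgeR, adjusted p = 2.95e-11), and 1.31-fold the control in the PRMT5 knockdown. Between the knockdowns the log2 difference was 0.07 ± 0.0310, which did not pass the test (edgeR, adjusted p = 0.0613) and had a 95% interval of -0.00 to 0.15. This last call depended on the scaling: with library-total scaling the difference was 0.09 (edgeR, adjusted p = 0.0168).

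BCL2L1 went the other way, slightly in the PRMT5 knockdown and more in the MEP50 knockdown. It had 154, 156 and 160.0 CPM across the PRMT5 knockdown libraries, 122, 120.2 and 117 CPM in the MEP50 knockdown libraries and 173, 171 and 164 CPM in the GFP control libraries. The 3 groups did not overlap, with MEP50 lowest, PRMT5 between and the control highest. BCL2L1 in the MEP50 knockdown was 70.8% of the control, a log2 fold change of -0.50 ± 0.0345 (edgeR, adjusted p = 9.14e-16). In the PRMT5 knockdown it was 92.6% of the control. The PRMT5 knockdown exceeded the MEP50 knockdown by 0.39 ± 0.0345 on the log2 scale (edgeR, adjusted p = 3.89e-12). BCL2L1 shares 43.0% of its exon bases with the antisense gene ABALON, which was not analysed here, and the strand setting of the counting is not given in the sources used here. BCL2L1 makes the survival form BCL-xL and a short form that promotes death, and MCL1 and BCL2L11 likewise have splice forms of unlike function. Counts per gene do not tell these forms apart.

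**Figure D1:**
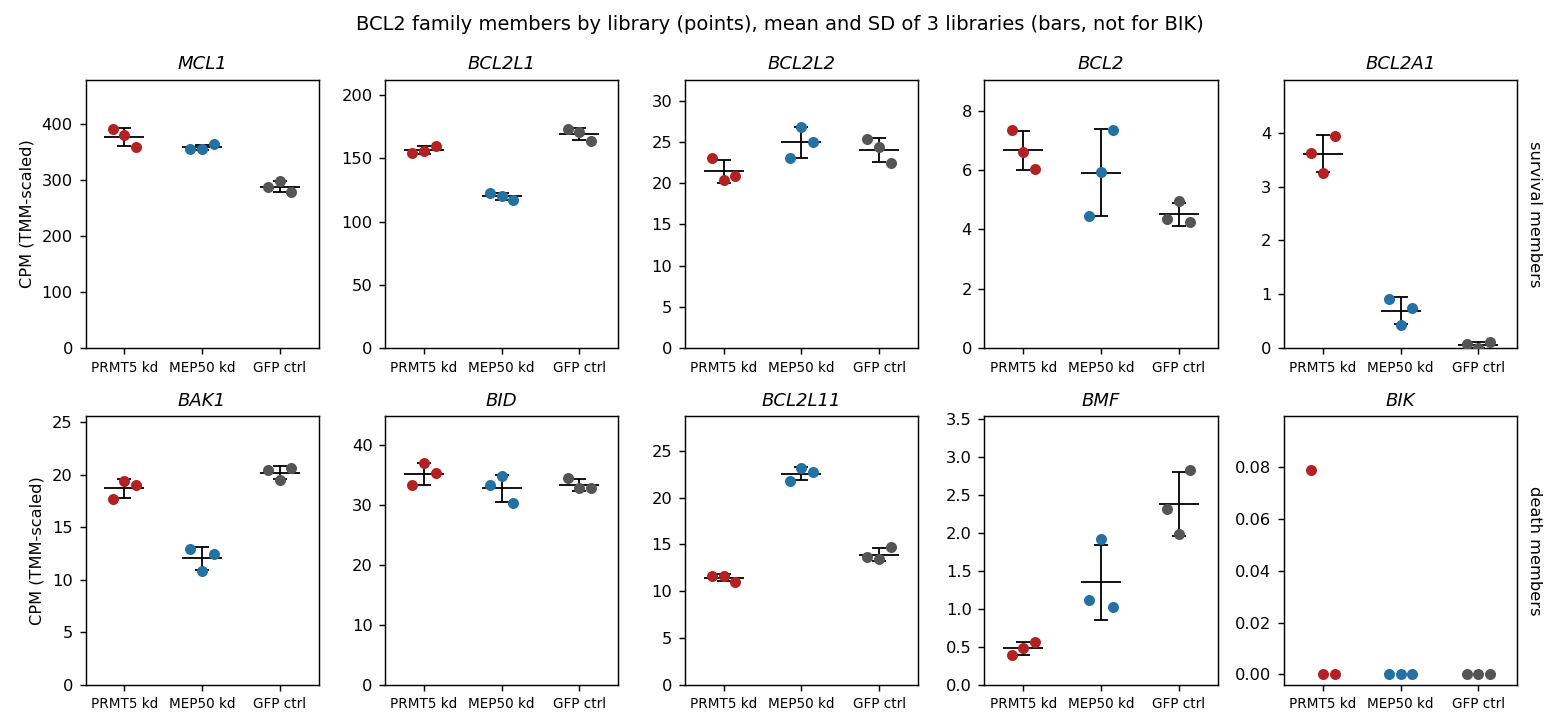
Level of each member in CPM after TMM scaling (vertical axes from 0, a scale of its own per panel) in the 3 libraries of the PRMT5 knockdown, the MEP50 knockdown and the GFP control, with bars for mean and SD. BCL2A1 is highest in the PRMT5 libraries and BMF lowest there, BCL2L11 is highest in the MEP50 libraries, BCL2L1 and BAK1 are lowest in them, and BIK had 2 reads in 1 library.

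BCL2, the founding survival gene, was low in A549 and higher in the knockdowns. Its level was 7.34, 6.61 and 6.03 CPM across the PRMT5 knockdown libraries, 4.45, 5.94 and 7.36 CPM in the MEP50 knockdown libraries and 4.35, 4.96 and 4.24 CPM in the GFP control libraries. The PRMT5 libraries all lay above the control, while the first MEP50 library lay within the control range. BCL2 was higher in the MEP50 knockdown by 0.41 ± 0.156 on the log2 scale (edgeR, adjusted p = 0.0282), a call that ended under DESeq2 (adjusted p = 0.0643) and under 4 of the 9 fits with 1 library left out. Without the third MEP50 library the value was 0.19 (edgeR, adjusted p = 0.379). Between the knockdowns BCL2 did not pass the test, with a log2 difference of 0.15 ± 0.149 (edgeR, adjusted p = 0.462) and a 95% interval of -0.22 to 0.51.

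BCL2L2, which encodes the survival protein BCL-w, had 23.0, 20.3 and 20.9 CPM across the PRMT5 knockdown libraries, 23.1, 26.7 and 25.0 CPM in the MEP50 knockdown libraries and 25.3, 24.3 and 22.5 CPM in the GFP control libraries. The PRMT5 libraries lay below the MEP50 libraries, although the highest of them nearly met the lowest MEP50 library, and both knockdowns overlapped the control. The difference between PRMT5 and MEP50 knockdown was -0.22 ± 0.0758 on the log2 scale (edgeR, adjusted p = 0.0175). It was lost without the second PRMT5 library (-0.19, adjusted p = 0.0947) or the second MEP50 library (-0.18, adjusted p = 0.0961). Against the control, BCL2L2 in the MEP50 knockdown differed by 0.05 ± 0.0754 (edgeR, adjusted p = 0.593), with a 95% interval of -0.13 to 0.24. BCL2L2 shares 19.4% of its exon bases with the read-through gene BCL2L2-PABPN1 on the same strand, which had 22 reads in the PRMT5 knockdown, 9 in the MEP50 knockdown and 14 in the GFP control, so reads of the shared exons cannot be assigned between these genes.

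BAK1, the effector that oligomerises into pores of the outer membrane, was lower in the MEP50 knockdown. Its level was 17.7, 19.4 and 19.0 CPM across the PRMT5 knockdown libraries, 12.9, 10.8 and 12.4 CPM in the MEP50 knockdown libraries and 20.4, 19.5 and 20.6 CPM in the GFP control libraries. The MEP50 libraries lay far below all others, whereas the highest PRMT5 library reached just under the lowest control library. BAK1 fell to 59.8% of the control in the MEP50 knockdown, a log2 fold change of -0.74 ± 0.0869 (edgeR, adjusted p = 1.80e-09), and was higher in the PRMT5 than in the MEP50 knockdown by 0.63 ± 0.0870 (edgeR, adjusted p = 1.23e-07). In the PRMT5 knockdown its log2 difference from the control was -0.11 ± 0.0805. The pseudogene BAK1P1, a near copy that could take or give reads, stood at 0.855 ± 0.344 CPM in the PRMT5 knockdown, 0.609 ± 0.228 CPM in the MEP50 knockdown and 1.16 ± 0.272 CPM in the GFP control. BAX, the other effector, was higher in the PRMT5 knockdown (log2 fold change 0.31, edgeR adjusted p = 7.21e-08) and in the MEP50 knockdown (0.37, adjusted p = 1.39e-09). The effectors thus differed from the control in opposite directions in the MEP50 knockdown.

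BCL2L11 separated the knockdowns from each other. It had 11.6, 11.6 and 11.0 CPM across the PRMT5 knockdown libraries, 21.8, 23.2 and 22.8 CPM in the MEP50 knockdown libraries and 13.6, 13.4 and 14.7 CPM in the GFP control libraries. The MEP50 libraries stood above the control and the PRMT5 libraries below it, with no overlap among the groups. BCL2L11 in the MEP50 knockdown was 1.62-fold the control, a log2 fold change of 0.70 ± 0.0832 (edgeR, adjusted p = 2.62e-09), and in the PRMT5 knockdown it was 82.1% of the control. Set directly against each other, the PRMT5 knockdown held 50.6% of the BCL2L11 level of the MEP50 knockdown, a log2 difference of -0.98 ± 0.0844 (edgeR, adjusted p = 1.43e-12). BCL2L11 shares 10.9% of its exon bases with the long noncoding RNA gene MIR4435-2HG on the opposite strand. MIR4435-2HG was higher in both knockdowns, by log2 0.47 in the PRMT5 knockdown (edgeR, adjusted p = 8.30e-06) and by 0.39 in the MEP50 knockdown (adjusted p = 0.000187). Its part in the counts of BCL2L11 was not tested. The libraries were stranded, but the unknown strand setting bears on BCL2L11 as it does on BCL2L1.

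BMF was low in every group and lowest in the PRMT5 knockdown. Its level was 0.395, 0.484 and 0.568 CPM across the PRMT5 knockdown libraries, 1.11, 1.92 and 1.02 CPM in the MEP50 knockdown libraries and 2.31, 1.99 and 2.83 CPM in the GFP control libraries. The groups did not overlap, although the second MEP50 library came close to the lowest control library. Summed over 3 libraries these levels rest on 43 reads in the PRMT5 knockdown, 93 in the MEP50 knockdown and 195 in the GFP control. Scaled for depth, the reads of the MEP50 knockdown were 0.557 times those of the control (95% counting interval 0.430 to 0.717, which is not a test). This interval covers counting error alone, and its control libraries are those of the comparison that chose BMF, so it is not support for the difference. The reads of the PRMT5 knockdown were 0.370 times those of the MEP50 knockdown. The fitted log2 fold change of BMF was -2.27 ± 0.311 for the PRMT5 knockdown and -0.83 ± 0.277 for the MEP50 knockdown, and without the second MEP50 library the MEP50 value was -1.15. BMF shares 8.46% of its exon bases with the antisense gene BMF-AS1. Over the 9 libraries the genes closest to its profile were OAS1, an interferon-induced sensor of double-stranded RNA, the noncoding LINC02762, and PDK4, a kinase that holds back pyruvate dehydrogenase, with root mean square log2 differences of 0.268, 0.302 and 0.308. OAS1 stood at 29.1 ± 1.02 CPM in the PRMT5 knockdown, 71.2 ± 1.5 CPM in the MEP50 knockdown and 132 ± 4.65 CPM in the GFP control.

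BID, which caspase-8 cleaves to carry a death-receptor signal to mitochondria, passed no test. It had 33.3, 36.9 and 35.3 CPM across the PRMT5 knockdown libraries, 33.3, 34.7 and 30.3 CPM in the MEP50 knockdown libraries and 34.4, 32.7 and 32.8 CPM in the GFP control libraries. All 3 groups overlapped. For BID the log2 difference of the MEP50 knockdown from the control was -0.03 ± 0.0641 (edgeR, adjusted p = 0.757), with a 95% interval of -0.18 to 0.13. Between PRMT5 and MEP50 knockdown it was 0.11 ± 0.0634 (edgeR, adjusted p = 0.186), with an interval of -0.05 to 0.26. BIK, a BH3-only gene of the endoplasmic reticulum, had 2 reads in the first PRMT5 knockdown library and 0 reads in the other 8 libraries, which is too few for the fit and for a fold change.

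**Figure D2:**
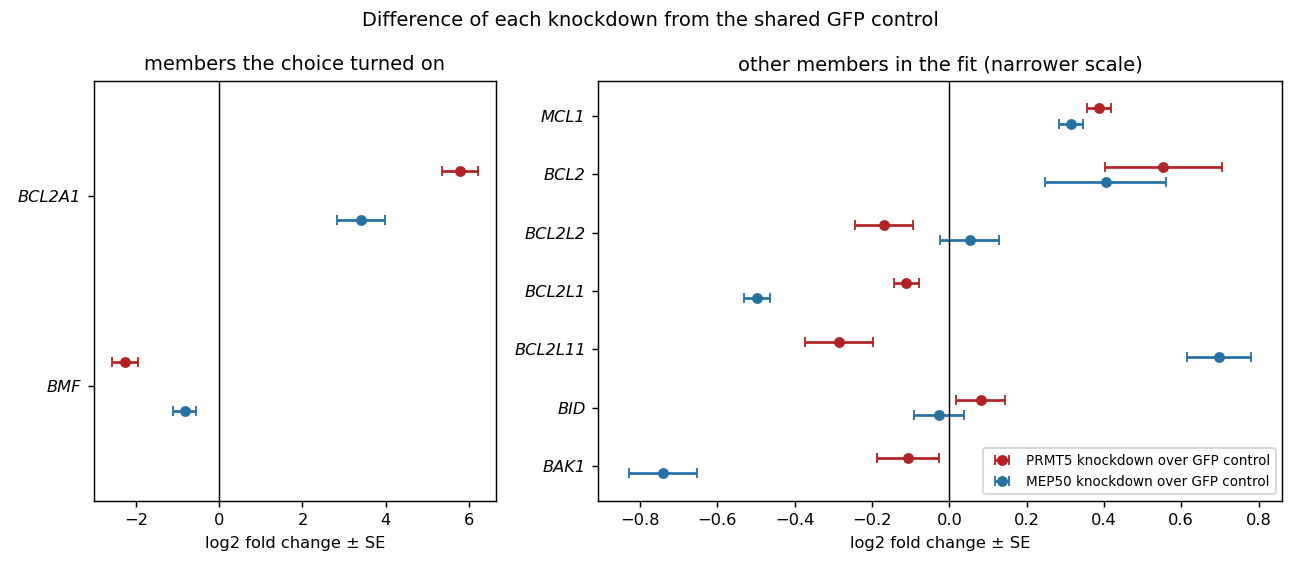
Log2 fold change with SE (horizontal axes) of the 9 fitted members in the PRMT5 and the MEP50 knockdown, both over the same GFP control libraries, with BCL2A1 and BMF on a wider scale at left. BCL2L11 lies on opposite sides of 0 in the knockdowns at -0.29 and 0.70, MCL1 lies close together at 0.39 and 0.31, and BCL2L1 and BAK1 are further below 0 in the MEP50 knockdown.

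A call is an edgeR adjusted p below 0.05 over all 14582 genes. In the PRMT5 knockdown against the control 26.1% of the tested genes were called higher and 24.9% lower. The choice of the members used that comparison, so no calls of members by this fit are counted in it. Calls in the other comparisons are counted over 7 members, leaving out BCL2A1 and BMF. In the MEP50 knockdown 3 of these were higher than in the control (BCL2, MCL1 and BCL2L11) and 2 lower (BCL2L1 and BAK1), against 26.5% higher and 25.2% lower of all genes. The PRMT5 knockdown exceeded the MEP50 knockdown in 2 (BCL2L1 and BAK1) and was below it in 2 (BCL2L2 and BCL2L11), against 19.2% higher and 20.5% lower of all genes. Called in either direction were 51.7% of all genes in the MEP50 knockdown and 39.7% between the knockdowns, and the counts of the 7 members are not read as particular to the family.

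To compare members with each other, levels were divided by the union of exon bases of the gene in GENCODE release 29, giving RPKM, which is CPM per kilobase of exon. MCL1 and BCL2L1 dominated the family by this measure. MCL1 stood at 86.3 ± 3.82 RPKM in the PRMT5 knockdown, 82.1 ± 1.09 RPKM in the MEP50 knockdown and 66.0 ± 2.27 RPKM in the GFP control. BCL2L1 followed at 47.3 ± 0.872, 36.2 ± 0.791 and 51.1 ± 1.43 RPKM in the same groups, with no overlap with MCL1 in any of them. In the control BAK1 (9.12 ± 0.281 RPKM), BID (7.49 ± 0.211 RPKM), BCL2L2 (5.74 ± 0.345 RPKM) and BCL2L11 (2.09 ± 0.103 RPKM) came next without overlap between neighbours. The length of BCL2L2 includes the 19.4% of its exon bases shared with BCL2L2-PABPN1, whose reads cannot be assigned. Its level may therefore be too low in every group, and its place below BID depends on the length used. BMF (0.436 ± 0.0774 RPKM) and BCL2 (0.384 ± 0.0329 RPKM) overlapped each other, and BCL2A1 was last at 0.0577 ± 0.0517 RPKM.

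The order of the lower members differed in the knockdowns. In the PRMT5 knockdown BCL2A1, at 3.32 ± 0.316 RPKM, lay below BCL2L2 (5.11 ± 0.342 RPKM) and above BCL2L11 (1.72 ± 0.0545 RPKM) without overlap with either, and BMF was the lowest fitted member at 0.0885 ± 0.0159 RPKM. BAK1 at 8.45 ± 0.411 RPKM and BID at 7.91 ± 0.401 RPKM overlapped there. In the MEP50 knockdown BAK1, at 5.45 ± 0.499 RPKM, overlapped BCL2L2 at 5.95 ± 0.441 RPKM and lay below BID at 7.37 ± 0.506 RPKM. BCL2A1 (0.636 ± 0.231 RPKM) and BCL2 (0.503 ± 0.124 RPKM) overlapped, and BMF followed at 0.248 ± 0.0905 RPKM. The place of BID depended on the length used: over its longest transcript it stood at 14.1, 13.1 and 13.4 RPKM in the PRMT5 knockdown, the MEP50 knockdown and the control, above BAK1 in each.

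**Figure D3:**
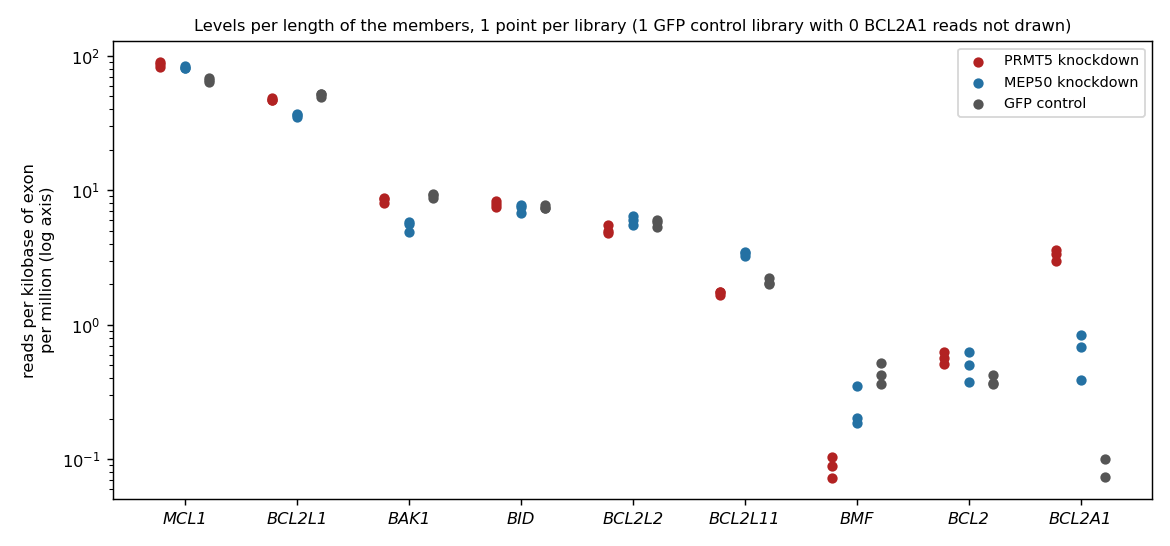
RPKM (vertical log axis) of the 9 fitted members, ordered by their control mean, with 1 point per library. MCL1 and BCL2L1 lie above all others in every group, and BCL2A1 spans from the lowest place in the control (mean 0.0577) to 3.32 in the PRMT5 knockdown.

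The pool of survival transcripts differed from the control in its make-up in both knockdowns, and in its sum in the PRMT5 knockdown. Summed over the 5 survival members, the level was 145.7, 142.6 and 139.5 RPKM across the PRMT5 knockdown libraries, 125.1, 125.0 and 126.0 RPKM in the MEP50 knockdown libraries and 124.7, 126.1 and 119.0 RPKM in the GFP control libraries. The PRMT5 libraries all lay above the others, and the MEP50 libraries overlapped the control. MCL1 made up 60.5 ± 1.44% of this sum in the PRMT5 knockdown, 65.5 ± 0.595% in the MEP50 knockdown and 53.5 ± 0.586% in the control. BCL2L1 made up 33.2 ± 1.32%, 28.9 ± 0.735% and 41.4 ± 0.468% of it in the same groups. The ratio of MCL1 to BCL2L1 was therefore 1.83 ± 0.114 with PRMT5 knockdown and 2.27 ± 0.0784 with MEP50 knockdown, against 1.29 ± 0.0287 in the control, without overlap among the groups. BCL2A1, for all its fold change, was 2.33 ± 0.251% of survival transcripts in the PRMT5 knockdown, 0.507 ± 0.184% in the MEP50 knockdown and 0.0475 ± 0.0430% in the control.

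On the death side, the BH3-only genes BID, BCL2L11, BMF and BIK summed to 9.40, 10.1 and 9.69 RPKM across the PRMT5 knockdown libraries, 11.0, 11.6 and 10.4 RPKM in the MEP50 knockdown libraries and 10.2, 9.74 and 10.1 RPKM in the GFP control libraries. The PRMT5 knockdown overlapped the control, and the MEP50 libraries lay above both. With the length of the longest transcript, tried after seeing the data, that separation ended, since the sums were 15.8, 17.1 and 16.4 RPKM in the PRMT5 knockdown, 17.8, 18.8 and 16.7 RPKM in the MEP50 knockdown and 16.9, 16.1 and 16.6 RPKM in the GFP control. BCL2L11 made up 17.6 ± 0.834% of this sum in the PRMT5 knockdown, 30.8 ± 1.68% in the MEP50 knockdown and 20.9 ± 0.903% in the control. BMF made up 0.907 ± 0.155%, 2.23 ± 0.689% and 4.35 ± 0.710% of it in the same groups, so BID was most of the sum in each. The ratio of summed survival transcripts to BAK1 was 16.9 ± 1.15 with PRMT5 knockdown and 23.2 ± 2.17 with MEP50 knockdown, against 13.5 ± 0.781 in the control, again without overlap. Their ratio to the BH3-only sum was 14.7 ± 0.752 in the PRMT5 knockdown, 11.4 ± 0.676 in the MEP50 knockdown and 12.3 ± 0.588 in the control, with overlap between the MEP50 knockdown and the control. These sums weigh transcripts alike, hold 4 of the known BH3-only genes and only 1 of the effectors, and are descriptions without a test. BAX, the effector left out, lay above BAK1 in CPM in every library. It stood at 88.3 CPM in the PRMT5 knockdown, 92.1 CPM in the MEP50 knockdown and 71.3 CPM in the control. Of the BH3-only genes left out, BBC3 and PMAIP1 were called higher in the MEP50 knockdown, and BAD and HRK were not called there. The ratios therefore hold for the genes summed and do not give a balance of survival and death.

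**Figure D4:**
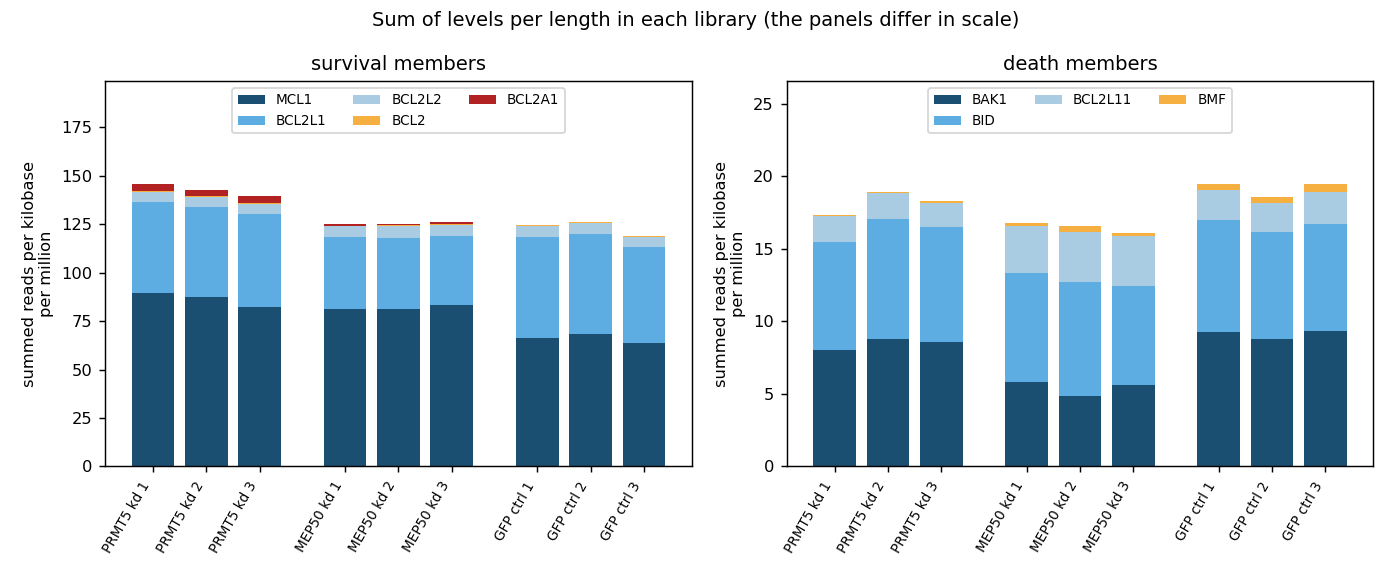
Stacked RPKM (vertical axes from 0, which differ between the panels) of the survival members at left and of the death members at right in each of the 9 libraries. The MCL1 segment is taller in all 6 knockdown libraries than in the control, the BCL2L1 and BAK1 segments are shortest in the MEP50 libraries, and the BCL2A1 segment is visible mainly in the PRMT5 libraries.

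Genes around the members were followed as 6 lists of textbook pathway genes, given here by counts and by the median log2 fold change, and genes are set against the control by log2 fold changes. Over all tested genes that median was 0.00323 in the PRMT5 knockdown, -0.00188 in the MEP50 knockdown and 0.00120 between the knockdowns. Of all tested genes, 26.1% were called higher and 24.9% lower in the PRMT5 knockdown, and 26.5% and 25.2% in the MEP50 knockdown. Between the knockdowns these shares were 19.2% and 20.5%. The counts of the lists were not tested against these shares and are not read as particular to the lists. Of 13 other BCL2 family genes, 10 were in the fit. In the PRMT5 knockdown 3 were higher and 2 lower (median -0.01), in the MEP50 knockdown 4 were higher and 1 lower (median 0.11), and between the knockdowns 2 were higher and 4 lower in the PRMT5 knockdown (median -0.12). Without the first MEP50 library 2 were lower in the MEP50 knockdown, and without the second 1 was higher between the knockdowns. BBC3 and PMAIP1, which encode the BH3-only proteins PUMA and NOXA, were lower in the PRMT5 than in the MEP50 knockdown. BBC3 differed from the control by log2 0.06 ± 0.130 in the PRMT5 knockdown (edgeR, adjusted p = 0.739), was higher by 0.82 ± 0.126 in the MEP50 knockdown (adjusted p = 5.52e-07), and was lower in the PRMT5 than in the MEP50 knockdown at -0.77 ± 0.125 (adjusted p = 3.29e-06). PMAIP1, whose product binds MCL1, was higher in the PRMT5 knockdown by log2 0.38 (edgeR, adjusted p = 1.27e-05) and in the MEP50 knockdown by 0.67 (adjusted p = 5.44e-11), and the difference of -0.29 between PRMT5 and MEP50 knockdown passed (adjusted p = 0.000382). BNIP3L, a receptor for the removal of mitochondria, was lower in the PRMT5 knockdown at log2 -0.39 (edgeR, adjusted p = 4.57e-11).

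Of 9 genes for partners and turnover factors of the family, 8 were in the fit and DYNLL2 was not matched. In the PRMT5 knockdown 1 was higher and 2 lower (median -0.04), in the MEP50 knockdown 2 were higher and 4 lower (median -0.08), and between the knockdowns 1 was higher (2 without the first MEP50 library) and 1 lower in the PRMT5 knockdown (median 0.04). USP9X, a deubiquitinase that stabilises MCL1, was lower in the PRMT5 knockdown at log2 -0.57 (edgeR, adjusted p = 1.20e-21) and in the MEP50 knockdown at -0.61 (adjusted p = 2.48e-22). BTRC, a substrate receptor of a ubiquitin ligase that acts on MCL1 and BIM, was higher by log2 0.47 in the PRMT5 knockdown (edgeR, adjusted p = 1.99e-08) and by 0.44 in the MEP50 knockdown (adjusted p = 1.23e-07). BECN1, an autophagy protein with a BH3 domain, was lower in both, at log2 -0.24 in the PRMT5 knockdown (edgeR, adjusted p = 2.45e-05) and at -0.30 in the MEP50 knockdown (adjusted p = 7.95e-07). These are transcript levels, so they do not give the amount or life of any member's protein.

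All 16 genes of the apoptosome and caspases were in the fit, with 3 higher and 6 lower in the PRMT5 knockdown (median -0.04), 6 higher and 5 lower in the MEP50 knockdown (median -0.02), and 2 higher and 6 lower in the PRMT5 than in the MEP50 knockdown (median -0.08). CASP9, the initiator caspase of the mitochondrial route, stood at 8.54 ± 0.503 CPM in the PRMT5 knockdown, 14.4 ± 0.843 CPM in the MEP50 knockdown and 19.2 ± 0.918 CPM in the GFP control. That was a log2 fold change of -1.16 in the PRMT5 knockdown (edgeR, adjusted p = 5.19e-14) and of -0.40 in the MEP50 knockdown (adjusted p = 0.000181), and the difference of -0.76 between the knockdowns also passed (adjusted p = 2.13e-08). APAF1, the scaffold on which caspase-9 is activated, was higher in the PRMT5 knockdown by log2 0.20 (edgeR, adjusted p = 0.000140) and in the MEP50 knockdown by 0.38 (adjusted p = 4.63e-10). CASP10 and CASP6 were lower in the PRMT5 knockdown at log2 -0.47 (edgeR, adjusted p = 0.00104) and -0.38 (adjusted p = 0.000211). CASP8, which cleaves BID, was lower in the MEP50 knockdown at -0.38 (edgeR, adjusted p = 1.77e-07) and in the PRMT5 knockdown at -0.15 (adjusted p = 0.0139). The PRMT5 call of CASP8 was lost without the first PRMT5 library (-0.12, edgeR adjusted p = 0.0716).

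Of 8 inhibitors of caspases, 6 were in the fit, with 3 higher and 1 lower in the PRMT5 knockdown (median 0.05), 2 higher and 1 lower in the MEP50 knockdown (median 0.04), and 3 higher and 2 lower in the PRMT5 than in the MEP50 knockdown (median 0.02). Between the knockdowns 1 in place of 2 was lower with library-total scaling, without the filter on low counts and without the third MEP50 library. BIRC3, like BCL2A1 a known NF-kB target, stood at 55.0 ± 1.19 CPM in the PRMT5 knockdown, 35.5 ± 5.30 CPM in the MEP50 knockdown and 31.3 ± 1.88 CPM in the GFP control. Its log2 fold change was 0.81 in the PRMT5 knockdown (edgeR, adjusted p = 3.82e-12), and the PRMT5 knockdown exceeded the MEP50 knockdown by 0.64 (adjusted p = 2.85e-09). The difference of BIRC3 in the MEP50 knockdown was 0.18 (edgeR, adjusted p = 0.0388), and this call was lost under 8 of 17 alternatives, which leaves 1 inhibitor higher in the MEP50 knockdown. Those 8 were upper-quartile and library-total scaling, DESeq2 (adjusted p = 0.0650), the fit of 6 libraries and the removal of the second PRMT5, the first MEP50, the first control or the second control library. The BIRC3 value was 0.06 without the first MEP50 library (edgeR, adjusted p = 0.480). BIRC5, survivin, was higher by log2 0.41 in the PRMT5 knockdown (edgeR, adjusted p = 3.94e-14) and by 0.64 in the MEP50 knockdown (adjusted p = 4.64e-20). XIAP was lower at log2 -0.13 in the PRMT5 knockdown (edgeR, adjusted p = 0.00120) and BIRC2 at -0.42 in the MEP50 knockdown (adjusted p = 6.66e-11).

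Of 12 death receptors and adaptors, 10 were in the fit, with 4 higher and 1 lower in the PRMT5 knockdown (median 0.07), 2 higher and 2 lower in the MEP50 knockdown (median 0.06), and 4 higher and 2 lower in the PRMT5 than in the MEP50 knockdown (median 0.06). TNFRSF21, death receptor 6, was lower in the PRMT5 knockdown at log2 -1.02 (edgeR, adjusted p = 2.15e-26) and in the MEP50 knockdown at -1.31 (adjusted p = 1.62e-29). TNFRSF10D, a decoy receptor for TRAIL, was higher in the PRMT5 knockdown by log2 0.51 (edgeR, adjusted p = 1.23e-10) and in the MEP50 knockdown by 0.73 (adjusted p = 4.06e-15). TNFRSF10A, a signalling TRAIL receptor, was higher in the PRMT5 knockdown by log2 0.52 (edgeR, adjusted p = 1.47e-10), and FAS was higher in the MEP50 knockdown by 0.42 (adjusted p = 1.91e-05).

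All 12 transcription factors and regulators known to act on members were in the fit, with 5 higher and 4 lower in the PRMT5 knockdown (median 0.09), 4 higher and 5 lower in the MEP50 knockdown (median -0.02), and 3 higher and 2 lower in the PRMT5 than in the MEP50 knockdown (median 0.01). Without the first control library 3 were higher in the PRMT5 knockdown, and without the second PRMT5, the third PRMT5 or the second MEP50 library 1 was lower in the PRMT5 than in the MEP50 knockdown. NFKB1, the gene of the p50 subunit, was higher in the PRMT5 knockdown by log2 0.65 (edgeR, adjusted p = 1.09e-14) and in the MEP50 knockdown by 0.58 (adjusted p = 5.32e-13). NFKBIA, the inhibitor that NF-kB induces, was lower in the PRMT5 knockdown at log2 -0.25 (edgeR, adjusted p = 3.99e-05) and in the MEP50 knockdown at -0.61 (adjusted p = 1.63e-13). NFKB2, the gene of the p100 precursor, was higher in the PRMT5 knockdown by log2 0.41 (edgeR, adjusted p = 7.23e-08) and lower in the MEP50 knockdown at -0.57 (adjusted p = 5.63e-10), and the difference of 0.98 ± 0.0513 between PRMT5 and MEP50 knockdown passed the test (adjusted p = 1.60e-14). FOXO1, whose family acts on BCL2L11, was lower in the PRMT5 knockdown at log2 -0.76 (edgeR, adjusted p = 2.25e-10). In the MEP50 knockdown FOXO1 was also lower, at -0.20 (edgeR, adjusted p = 0.0378), a call lost under 5 of 17 alternatives. Whether any of these factors bears on a member was not tested.

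**Figure D5:**
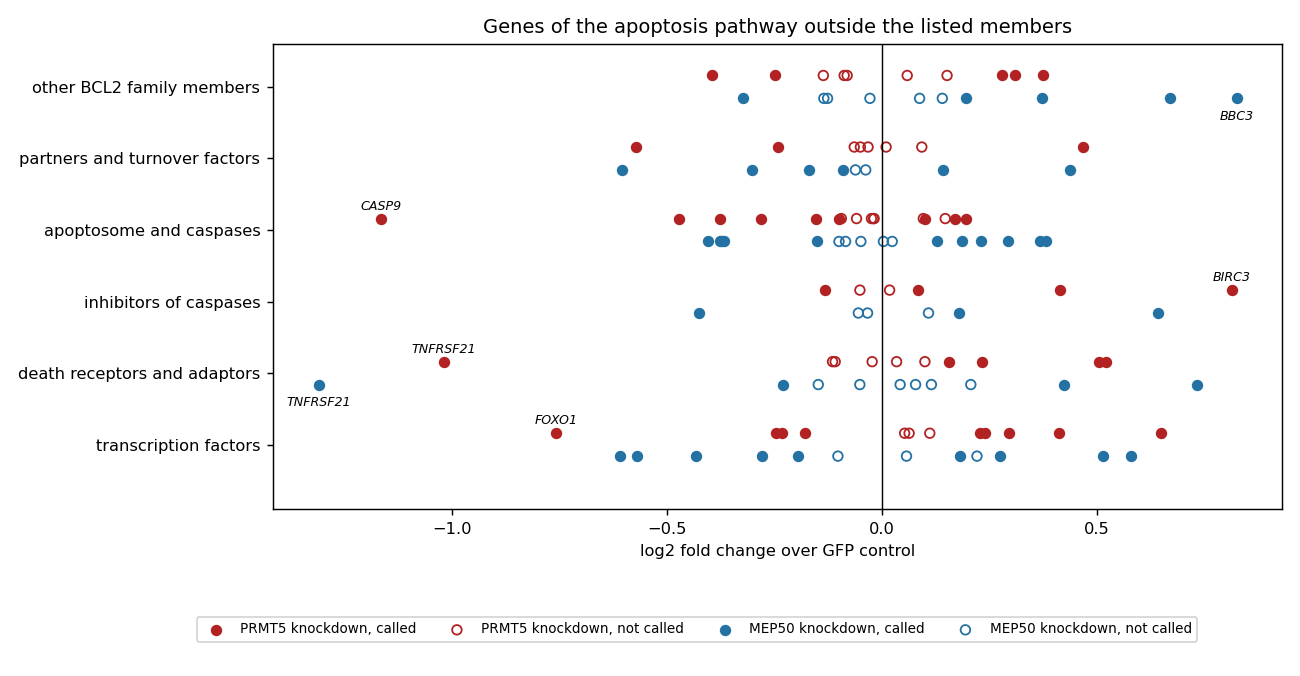
Log2 fold change over the GFP control (horizontal axis) of each fitted gene of the 6 lists (rows) in the PRMT5 and the MEP50 knockdown, filled where edgeR's adjusted p is below 0.05 and open elsewhere. CASP9 lies at log2 -1.16 in the PRMT5 knockdown, TNFRSF21 at -1.02 in the PRMT5 and -1.31 in the MEP50 knockdown, and the other genes lie closer to 0.

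The authors' deposited tables list 6807 genes for the PRMT5 knockdown and 6832 for the MEP50 knockdown, each with an adjusted p of DESeq2 and an FDR of edgeR below 0.05. The authors' deposited table for the PRMT5 knockdown lists 6 of the members, namely BCL2A1, BCL2, BCL2L1, MCL1, BMF and BCL2L11. The authors' deposited table for the MEP50 knockdown also lists 6, with BAK1 in place of BCL2, the member whose MEP50 call was lost under DESeq2 above. For the members of few reads the tools differ in size: the authors' deposited table gives BCL2A1 in the PRMT5 knockdown at log2 3.20 by DESeq2 and 5.79 by edgeR, and BMF at -1.62 and -2.27. In the authors' deposited table for the MEP50 knockdown BCL2A1 stands at log2 1.16 by DESeq2 and 3.41 by edgeR.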

How the data were processed

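RNA of 9 A549 libraries was depleted of ribosomal RNA and made into stranded libraries, per the labels' protocols, and samples were grouped by the labels alone. The authors' deposited table holds whole-number read counts per Ensembl gene. Per the submitters' processing notes, Trim Galore, STAR and HTSeq were used, on hg19. Versions and the strand setting of the counting are not given in the sources used here. Both deposited comparison tables hold, per the file headers, log2 fold changes of DESeq2 and edgeR with an adjusted p-value or FDR.

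The 5 summary lines of the table entered neither library sizes nor tests. Symbols were matched for 36583 identifiers (70.6%). The test was edgeR's (4.0.16, R 4.3.3) robust quasi-likelihood fit by group over the 9 libraries together, with TMM factors of 0.99 to 1.01, filterByExpr and Benjamini-Hochberg adjustment at 0.05 over 14582 genes. An SE is the size of the log2 fold change divided by the root of its F value, and 95% intervals of log2 values use it with the residual degrees of freedom. Intervals of count ratios cover counting error only. Replicate pairs differed by 3.39 to 4.71 times counting variance (chi-square per degree of freedom), so no library was counted as a duplicate. Lengths came from GENCODE release 29 (GRCh38) and promoters from RefSeq (GRCh38.p14), while counts were made on hg19.

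The members and lists were chosen with earlier results of these data known, and 1 gene of a list is not reported here. Up to 3 genes per list and knockdown were named, by the size of the change among calls whose mean level reached 1 CPM. BAX, BBC3, PMAIP1, genes sharing over 5% of the exon bases of a member and, for BCL2A1 and BMF, the 3 genes of closest profile (root mean square of log2 CPM, prior count 2, centred on the control) were named as well. Alternatives were scaling by RLE, by the upper quartile or by library totals, DESeq2 1.42.0, filters (none, or 1 CPM in 3 libraries), a replicate block, fits of 6 libraries and removal of each library.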

Additional observations from a re-analysis of the deposited data

How the results depend on the processing

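Under 17 alternatives to the main fit, the counts of genes called in each comparison and direction stayed within 1.5 times their values. BAK1, BCL2L1, BCL2L11 and MCL1 kept their calls in the MEP50 knockdown under all 17, at log2 fold changes of -0.78 to -0.67, -0.52 to -0.48, 0.67 to 0.74 and 0.29 to 0.33. The MEP50 call of BCL2 was lost under DESeq2 (log2 0.40, adjusted p = 0.0643) and with 1 library left out in 4 fits: MEP50 replicate 2 (0.41, edgeR adjusted p = 0.0505), MEP50 replicate 3 (0.19, adjusted p = 0.379), control replicate 1 (0.38, adjusted p = 0.0736) and control replicate 3 (0.36, adjusted p = 0.0942). MCL1 was called higher in the PRMT5 than in the MEP50 knockdown with upper-quartile scaling (log2 0.08, edgeR adjusted p = 0.0451), without the low-count filter (0.08, adjusted p = 0.0395) and without PRMT5 replicate 3 (0.10, adjusted p = 0.0114). The fitted log2 fold change of BCL2A1 ranged from 5.18 to 6.44 in the PRMT5 knockdown and from 2.81 to 4.08 in the MEP50 knockdown, with both ends set by which control library was left out. The causes were not tested.

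Leaving out 1 library turned the direction of 6 log2 values, none of which passed the test in the full fit. Their ranges were -0.036 to 0.18 for BBC3 in the PRMT5 knockdown, -0.067 to 0.023 for BID, -0.00534 to 0.054 for CASP6 and -0.21 to 0.053 for CASP10 in the MEP50 knockdown, and -0.024 to 0.35 for BCL2 and -0.013 to 0.16 for ITGAM between the knockdowns.

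Same-numbered libraries did not deviate together (correlations of -0.041 to 0.041 over 9 pairs), so the samples share only a number. With the replicate number as a block, 3804 genes were higher and 3619 lower with PRMT5 knockdown, 3874 and 3675 with MEP50 knockdown, and 2775 and 2984 between the knockdowns, and no tested call of a member changed. Depth limits BCL2A1, BMF and BIK. The p-values rest on the spread between 3 libraries a group, with the estimate of that spread sharing information across groups and tested genes.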

Other observations

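RELB, the NF-kB partner of the NFKB2 product and named after its values were seen, was higher in the PRMT5 knockdown by log2 0.23 (edgeR, adjusted p = 0.0110) and lower in the MEP50 knockdown at -0.43 (adjusted p = 1.84e-05), a difference of 0.66 ± 0.0794 (adjusted p = 7.36e-09). REL, named likewise, was lower in the PRMT5 knockdown at log2 -0.23 (edgeR, adjusted p = 0.0239), and RELA was not called there (0.06, adjusted p = 0.179). In the MEP50 knockdown REL was not called (-0.10, edgeR adjusted p = 0.346), nor was RELA (0.06, adjusted p = 0.235). BNIP3L, lower in the PRMT5 knockdown, was higher in the MEP50 knockdown by log2 0.19 (edgeR, adjusted p = 5.98e-05), and the difference of -0.59 ± 0.0399 passed the test (adjusted p = 1.62e-15). CDH1, the epithelial cadherin, was lower in the PRMT5 knockdown at log2 -0.20 (edgeR, adjusted p = 0.0131), a call lost without PRMT5 replicate 2 (-0.15, adjusted p = 0.0873) or control replicate 1 (-0.18, adjusted p = 0.0610), and higher in the MEP50 knockdown by 0.92 (adjusted p = 8.73e-14).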
